A study of Mus musculus with 12 samples.

Results

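DNA replication and S phase genes were examined in mouse basophil-lineage cells. The set held 43 genes, found by symbol in the table of 32227 genes, and all 43 passed the count filter that left 15083 genes for testing. The genes are grouped here by role: 9 license origins and start replication, 13 work at the fork, 3 make deoxynucleotides, 9 act on chromatin, histones or DNA methylation at the fork, 7 repair or protect newly made DNA, and 2 act at the G1/S transition.

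Bulk RNA sequencing was carried out on cells sorted from wild-type C57BL/6J mice, with 3 libraries in each of 4 groups and cells of several animals pooled in each library. Basophil progenitors (BaPs) were sorted from the bone marrow (BM) as CD200R3+ cKit- CLEC12A-high CD34+ cells, and pre-basophils as CD34- CLEC12A-high CD9-low BM cells, which the sample titles call immature basophils. Mature basophils were CD34- CLEC12A-low CD9-high cells of the BM or of the spleen. All 4 groups were untreated as far as the labels say, age is not stated, and nothing in the labels says whether the pools of a group came from separate days, so p-values measure the spread between these pools. The study places pre-basophils upstream of mature basophils. It predicts that its pre-basophil population includes BaP-like cells, and reports that BM and spleen mature basophils resembled each other in expression. The order BaP, pre-basophil, BM mature and spleen mature was set here, and the data were compared along its 3 steps.

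Before a cell divides, the MCM helicase is loaded at origins in G1 as an inactive ring (licensing), and in S phase the ring is joined by Cdc45 and the GINS complex and unwinds the DNA for the polymerases. Many of the genes for these proteins are transcribed together late in G1 under E2F transcription factors, and are silent or low in cells that have left the cycle. Granulocytes as a rule stop dividing as they mature, while their progenitors proliferate.

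To show the E2F sites for which such promoters are known, stretches of 5 are printed: 2 subunits of the helicase ring and the catalytic subunit of the priming polymerase, all called at the second step; Dtl, 1 of the 5 members called between BaPs and pre-basophils; and Casp8ap2, called at none of the 3 steps, which still holds a match. The sequences are from RefSeq (GRCm38.p6), read 5′ to 3′ on the gene's strand, and end at or before the start site; capitals mark matches to the 8-base E2F sequences TTTCCCGC, TTTCGCGC, TTTGCCGC and TTTGGCGC, on either strand.
Mcm5 (chr8:75109319-75109508, plus strand): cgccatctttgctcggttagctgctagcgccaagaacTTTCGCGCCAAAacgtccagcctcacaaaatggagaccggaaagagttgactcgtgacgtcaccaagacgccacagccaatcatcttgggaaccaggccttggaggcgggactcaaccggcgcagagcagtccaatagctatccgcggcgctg
Mcm6 (chr1:128359706-128359895, minus strand): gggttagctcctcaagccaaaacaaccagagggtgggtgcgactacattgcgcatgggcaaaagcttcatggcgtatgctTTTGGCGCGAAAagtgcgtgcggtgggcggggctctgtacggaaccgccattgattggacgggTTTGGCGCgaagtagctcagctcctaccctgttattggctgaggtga
Pola1 (chrX:93632156-93632345, minus strand): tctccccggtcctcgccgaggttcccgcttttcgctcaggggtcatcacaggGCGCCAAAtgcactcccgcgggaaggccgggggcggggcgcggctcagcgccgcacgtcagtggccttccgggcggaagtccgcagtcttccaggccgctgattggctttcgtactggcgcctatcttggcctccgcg
Dtl (chr1:191575545-191575635, minus strand): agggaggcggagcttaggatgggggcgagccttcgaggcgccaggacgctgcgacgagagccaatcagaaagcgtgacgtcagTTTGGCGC
Casp8ap2 (chr4:32615280-32615450, plus strand): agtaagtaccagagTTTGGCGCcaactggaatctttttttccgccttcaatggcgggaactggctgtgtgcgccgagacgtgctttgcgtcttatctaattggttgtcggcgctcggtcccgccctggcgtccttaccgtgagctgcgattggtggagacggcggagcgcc
In both Mcm5 and Mcm6, 2 matches on opposite strands overlap and make 1 run of capitals. RefSeq windows from 250 bases before to 50 bases after the start site were matched by symbol for 32 of the 43 members, in 36 windows. A match to 1 of the 4 E2F sequences lay in 14 of the 36 windows (38.9%), against 744 of all 32851 windows (2.265%). The CCAAT box, CCAAT on either strand, was in 25 member windows (69.4%) and in 37.4% of all windows. The cell cycle homology region of later cell cycle genes, TTTGAA on either strand, was in 6 member windows (16.7%) and in 17.9% of all windows. The 14 members with an E2F match were Casp8ap2, Cdc6, Cdca7, Clspn, Dtl, Hells, Mcm3, Mcm5, Mcm6, Mcm7, Pola1, Pold3, Ubr7 and Uhrf1. Gins1, Gins2, Tipin, Atad2, Mcm4, Usp1, Rfc2, Ccne2, Dscc1, Gmnn and Exo1 had no entry. A match in these letters does not show that a factor bound there.

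Library totals ran from 3596108 to 8151030 counts. Values are given as CPM, counts scaled to a common library total with edgeR's TMM factors, and a level of 1 gene is compared between groups, not with another gene. BaP replicate 3 stood apart from its group. It had counts in 26743 genes, against 21911 to 24704 in the other libraries, and its summed basophil markers (8 genes, Mcpt8 and Prss34 among them) reached 24957 CPM, against 67477 and 62475 CPM in the other BaPs. Its erythroid sum (7 genes) was 2405 CPM, against 11.7 and 14.9 CPM, and its T cell sum (6 genes) was 391 CPM, against 18.2 and 15.3 CPM. Basophil markers were present in each library, with sums from 5229 CPM upward, and Cd34, on which BaPs were sorted, was at 21.0, 24.5 and 35.6 CPM in BaPs and from 5.51 to 12.4 CPM in the other libraries.

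**Figure D1:**
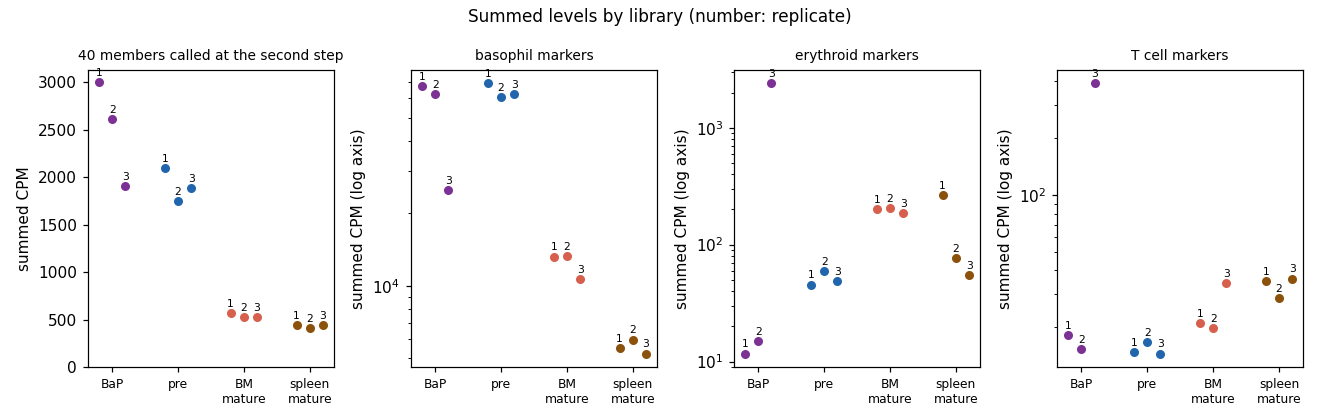
Summed CPM by library of the 40 members called at the second step (left, linear axis) and of the basophil, erythroid and T cell marker lists (log axes); points are single libraries, with the replicate number above each. The members' sum lies between 1753 and 3004 CPM in BaPs and pre-basophils and between 411 and 571 CPM in mature basophils, and BaP replicate 3 lies apart from the other BaPs in all 4 plots.

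The members took 0.378%, 0.348% and 0.281% of the counts of the 3 BaP libraries and 0.255%, 0.235% and 0.236% of the pre-basophil libraries. In mature basophils they took 0.0848%, 0.0887% and 0.0800% in the BM and 0.0849%, 0.0829% and 0.0866% in the spleen. The group mean was highest in BaPs for 41 of the 43 members, the exceptions being Rfc2 and E2f8. In edgeR's quasi-likelihood F test across the 4 groups, with Benjamini-Hochberg adjustment over all tested genes and a threshold of 0.05, 40 members were called, while 57.8% of all tested genes were called. Rfc2, Casp8ap2 and E2f8 were not called in this test. In bulk libraries, fewer cycling cells and less RNA of these genes per cell cannot be told apart.

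**Figure D2:**
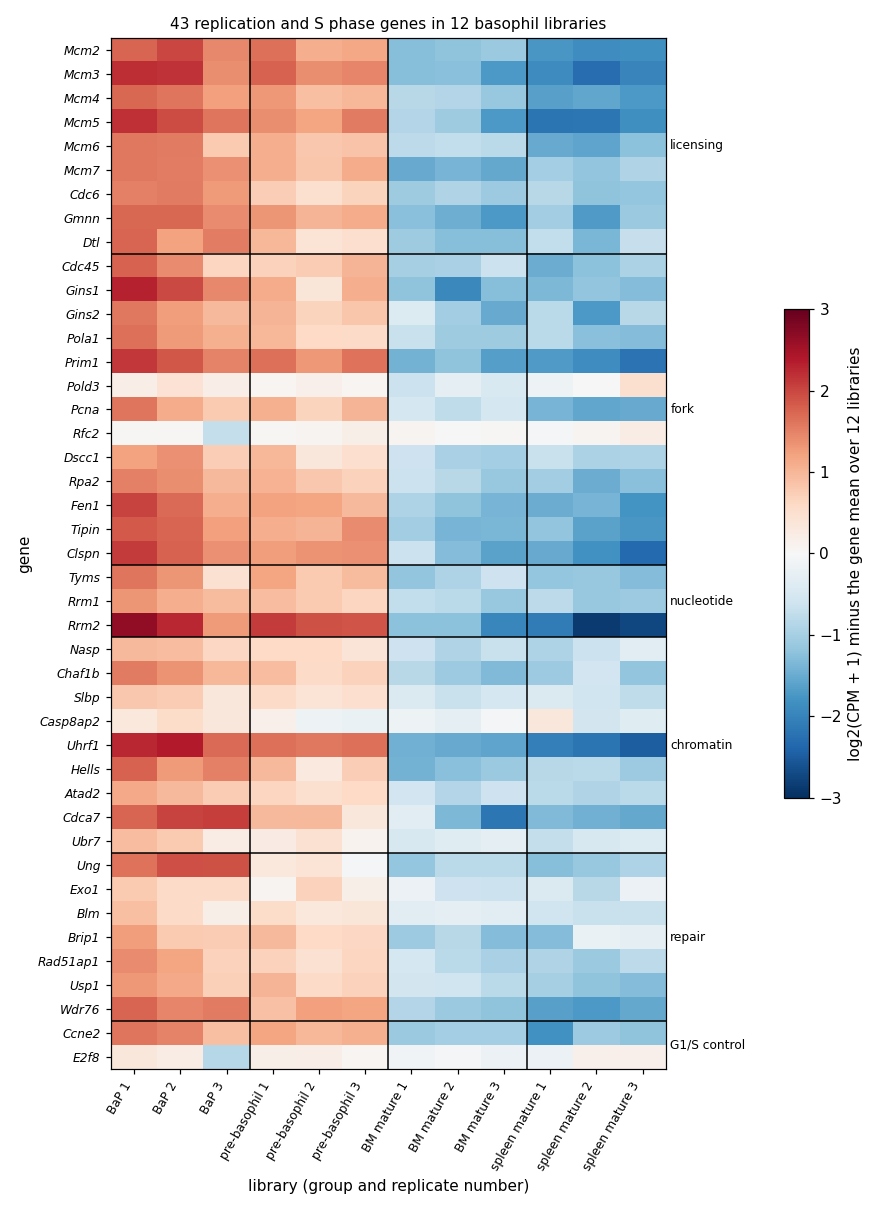
Level of the 43 members, grouped by role (rows), in the 12 libraries (columns), as log2(CPM + 1) minus the mean of the gene over the libraries; red is above and blue below that mean. Most rows are red in BaPs and pre-basophils and blue in both mature groups; Rfc2, Casp8ap2, E2f8 and Pold3 are pale throughout, except Rfc2 and E2f8 in BaP replicate 3.

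Between BaPs and pre-basophils, 5 members were called, all higher in BaPs: Ung, Cdc6, Hells, Dtl and Mcm7. Across all tested genes, 2.79% were called higher in BaPs. Of the 43 log2 fold changes (BaP over pre-basophil), 41 were above 0, with a median of 0.45 (1.37-fold), against 0.02 over all tested genes. No member was called lower in BaPs in edgeR, DESeq2 or limma-voom, and none was lower at an unadjusted p under 0.05. At an unadjusted p under 0.05, 24 members were higher in BaPs, a count for which no share over all tested genes is given here. With the replicate number as a block (same-numbered BM libraries deviated together), 8 members were called: the same 5 and Mcm4, Pola1 and Rpa2, with log2 fold changes of 0.46 ± 0.12 (adjusted p = 0.0342), 0.62 ± 0.11 (adjusted p = 0.00581) and 0.45 ± 0.13 (adjusted p = 0.0419) in that fit.

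Genes of other marker lists moved with this step. The primary granule list (5 genes) summed to 4787, 4004 and 1532 CPM in the BaP libraries and 2374, 1846 and 1879.9 CPM in those of pre-basophils, and 3 of the 5, Mpo, Elane and Prtn3, were called higher in BaPs. For Elane and Prtn3 the groups did not overlap. The monocyte or macrophage list (5 genes) summed to 36.8, 38 and 302 CPM in BaPs and 72.7, 100.1 and 92.3 CPM in pre-basophils. The sum was thus lower in BaP replicates 1 and 2 than in each pre-basophil library. Of this list only C1qa and C1qb, subunits of complement C1q, were called, both higher in BaPs without overlap. Of the T cell list, 3 of 6 genes were called higher in BaPs (Cd3g, Lck and Cd27), with the high values in BaP replicate 3. Of the basophil list (8 genes), Cd200r3 and Itga2 were called lower in BaPs and none higher. Of the stem or progenitor list (5 genes, Cd34 among them), 2 were called higher and 1 lower in BaPs. The late neutrophil granule list (6 genes) had no gene called at this step. It summed to 163, 690 and 1840 CPM in BaPs and 368, 834 and 1855 CPM in pre-basophils, highest in replicate 3 of both groups. Among BaPs the primary granule sum was lowest in replicate 3. Whether these transcripts came from basophil-lineage cells or from others, and their part in the step, was not tested.
The count depended on single libraries. Without BaP replicate 3, 27 members were called and the median was 0.61. Over all tested genes, 879 of 14723 were then called higher in BaPs, against 421 of 15083 with all libraries. The count was 2 without BaP replicate 1, 3 without BaP replicate 2, 3 without pre-basophil replicate 1, and 1 without pre-basophil replicate 2 or 3. Over all tested genes, 517 and 578 were called higher in BaPs without BaP replicate 1 and 2. Without pre-basophil replicate 1, 2 and 3 these were 151, 95 and 100. Over all 18 alternatives Mcm7 lost its call in 9, Cdc6 in 4 and Dtl and Hells in 3 each. The part of the other cell types in BaP replicate 3 was not tested.

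Between pre-basophils and BM mature basophils, 40 of the 43 members were called, all higher in pre-basophils, while 16.3% of all tested genes were called higher there. The log2 fold changes ran from 0.07 (Rfc2) to 3.85 (Gins1), with a median of 2.06 (4.18-fold), against -0.0044 over all tested genes. In 41 members, all but Rfc2 and Casp8ap2, all 3 pre-basophil libraries lay above all 3 BM mature libraries, which was so for 25.5% of all tested genes. No member was called lower in pre-basophils in edgeR, DESeq2 or limma-voom, nor lower at an unadjusted p under 0.05.
Basophil markers and the late neutrophil and primary granule genes moved with this step. The basophil list (8 genes) summed to 69454, 60698 and 62736.5 CPM in the pre-basophil libraries and 13218, 13335 and 10637 CPM in BM mature libraries. Of its 8 genes, 5 were called higher and 1 lower in pre-basophils. The late granule list (6 genes, Ltf and Camp among them, none at 0 in a library) summed to 368, 834 and 1855 CPM in the pre-basophil libraries and 68.4, 36.8 and 67.2 CPM in those of the BM mature group. The primary granule list (5 genes, Mpo among them, none at 0 in these libraries) summed to 2374, 1846 and 1879.9 CPM and 219, 228 and 108 CPM. All 6 late and all 5 primary granule genes were called higher in pre-basophils. Whether these transcripts came from basophil-lineage cells or from others, and their part in the step, was not tested.

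Between BM mature and spleen mature basophils, 3 members were called higher in the BM, Mcm4, Mcm5 and Pcna, against 4.67% of all tested genes. Pold3 was called lower in the BM, where 3.16% of all tested genes were called lower. Of the 43 log2 fold changes (BM over spleen), 29 were above 0 and 14 below, with a median of 0.18, against -0.0052 over all tested genes. At an unadjusted p under 0.05, 12 members were higher and 2 lower in the BM, again with no share over all tested genes given here.
The 4 calls did not hold up when libraries were left out: none remained without BM mature replicate 1, spleen mature replicate 2 or spleen mature replicate 3. In these fits edgeR gave 8 higher and 2 lower, 9 higher and 4 lower, and 10 higher and 2 lower at an unadjusted p under 0.05. For these counts, too, no share over all tested genes is given. Calls at the adjusted threshold fell over all tested genes as well, to between 241 and 543 in these fits, against 1181 with all libraries. There was 1 call without BM mature replicate 2 and there were 2 without BM mature replicate 3, spleen mature replicate 1, BaP replicate 2 or any of the 3 pre-basophil libraries, and 11 without BaP replicate 3, all groups sharing 1 estimate of the spread. All-gene calls were 459 without BM mature replicate 2, 448 without BM mature replicate 3 and 757 without spleen mature replicate 1. They were 1119 without BaP replicate 2, 822 to 875 without a pre-basophil library and 2653 without BaP replicate 3. Over all 18 alternatives Mcm4 lost its call in 6, Mcm5 in 11, Pcna in 4 and Pold3 in 12. B cell markers (6 genes) summed to 27.7, 31.5 and 30.3 CPM in the BM and 158, 99.2 and 101 CPM in the spleen, with 4 of the 6 called lower in the BM. The primary granule list (5 genes) summed to 219, 228 and 108 CPM in the BM and 54.6, 67 and 62.4 CPM in the spleen, with Mpo, Ctsg and Ms4a3 called higher in the BM. The basophil list (8 genes) summed to 13218, 13335 and 10637 CPM in the BM and 5523, 5979.5 and 5229 CPM in the spleen. Of its genes, Mcpt8, Prss34 and Ms4a2 were called higher in the BM and none lower. The part of these lists in the differences was not tested.

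**Figure D3:**
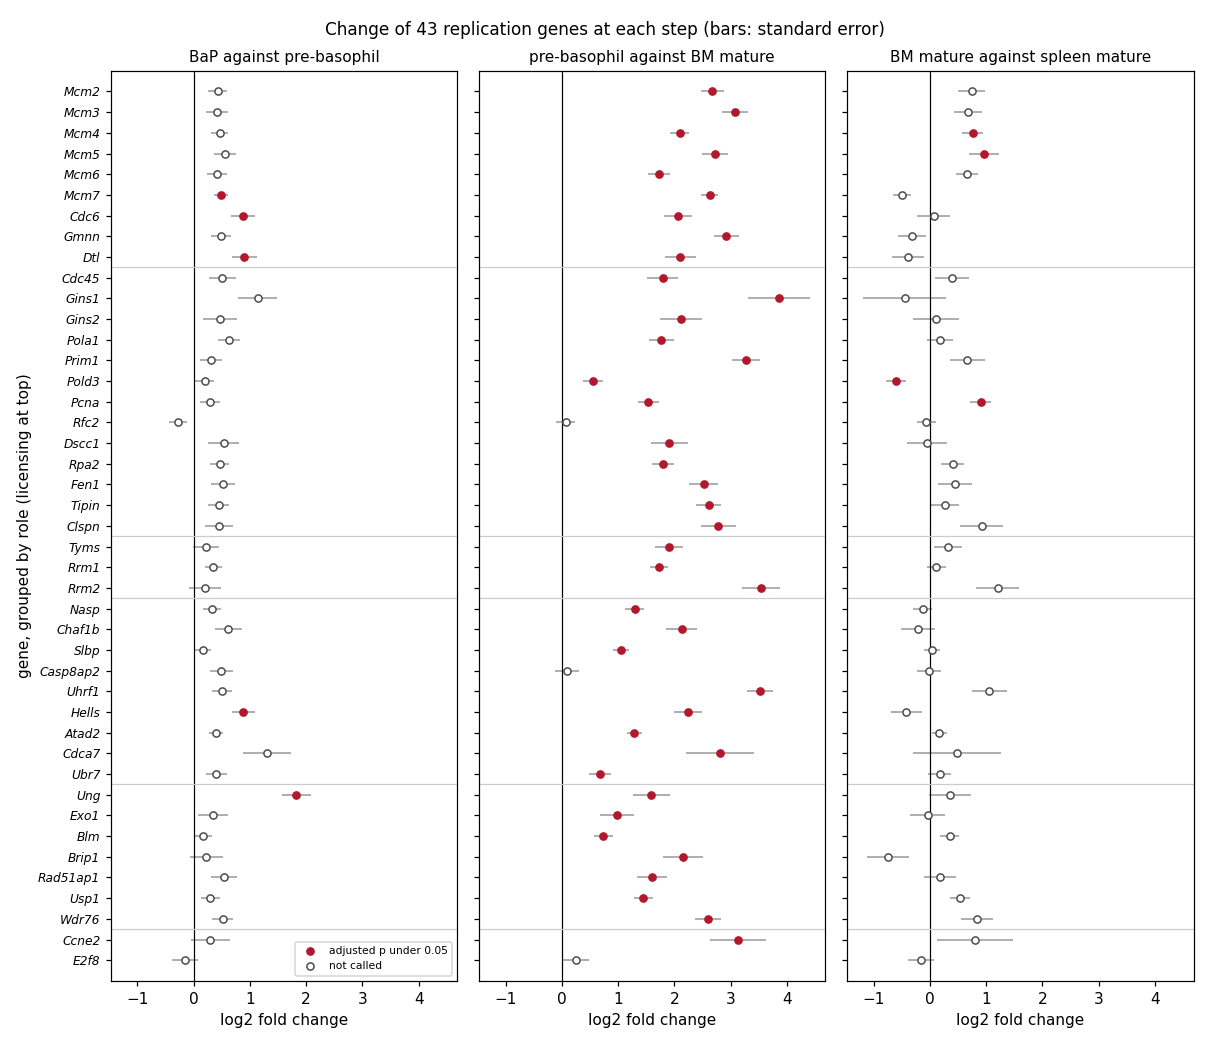
Log2 fold change of each member at the 3 steps, with its standard error; filled red points have an adjusted p under 0.05 in edgeR's quasi-likelihood test and open points do not. All 43 points lie right of 0 in the middle panel, 40 of them filled, while 5 are filled in the left panel and 4 in the right.

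The steps share groups, so their fold changes were compared by a contrast within the model, not by counting calls. The drop at the second step was called larger than that at the first for 21 members, against 2.78% of all tested genes, with a median difference of 1.38 on the log2 scale. The second-step log2 fold change was called above that of the third step for 25 members, against 2.96% of all tested genes, with a median difference of 1.76. The sign counts in this contrast. Of the 43 members, 14 had a third-step value below 0. Those that were also among the 25 were Brip1 (-0.74), Pold3 (-0.61), Mcm7 (-0.49), Gins1 (-0.45), Hells (-0.42), Dtl (-0.39), Gmnn (-0.32), Chaf1b (-0.22) and Nasp (-0.13). No member was called in the opposite direction, in edgeR, DESeq2 or limma-voom, or at an unadjusted p under 0.05.
Prim1, Uhrf1, Rrm2 and Mcm3 were among those called in both: the second drop of Uhrf1 exceeded the first by 3.01 ± 0.34 (adjusted p = 3.46e-04) and the third by 2.46 ± 0.49 (adjusted p = 0.0119). Casp8ap2 and Ung were the members whose second change was below the first, by -0.40 ± 0.37 (adjusted p = 0.634) and -0.23 ± 0.53 (adjusted p = 0.87), neither called. The first count was 10 without pre-basophil replicate 1 and 13 without pre-basophil replicate 2 or 3. Over all tested genes it was 153, 253 and 186 without pre-basophil replicate 1, 2 and 3, against 420 with all libraries. The second count was 12 without pre-basophil replicate 1, 8 without BM mature replicate 1 and 7 without BM mature replicate 2. It was 3 without BM mature replicate 3, and 10 with limma-voom in place of edgeR. Over all tested genes it was 194, 122, 112, 70 and 220 in these fits, against 447 with all libraries in edgeR.

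Among the licensing genes, Mcm2 to Mcm7 encode the 6 subunits of the helicase ring, Cdc6 loads it, geminin (Gmnn) keeps it from being loaded again in S phase, and Dtl is part of the ubiquitin ligase that destroys the loading factor Cdt1. All 9 were called at the second step, with log2 fold changes from 1.73 (Mcm6) to 3.08 (Mcm3) and a median of 2.63 (6.19-fold).
Mcm3 (chromosome 1, 20802968 to 20820312, GRCm38) was at 161, 154 and 91.3 CPM in the BaP libraries, 118, 91.3 and 95.8 CPM in those of pre-basophils, 13.4, 13.5 and 9.55 CPM in BM mature libraries and 8.48, 6.11 and 7.84 CPM in the spleen. The 6 mature libraries did not overlap the 6 less mature ones, and the BaP and pre-basophil libraries overlapped. The log2 fold changes were 0.41 ± 0.20 (adjusted p = 0.237), 3.08 ± 0.23 (adjusted p = 1.77e-06) and 0.68 ± 0.25 (adjusted p = 0.118) at the 3 steps.
Mcm7 (chromosome 5, 138164583 to 138172422) was at 76, 72.8 and 65.1 CPM in the BaP libraries, 53.4, 44.5 and 54.4 CPM in those of pre-basophils, 7.96, 8.76 and 7.86 CPM in BM mature libraries and 11.5, 10.2 and 12.7 CPM in the spleen. It fell at both steps within the BM without overlap of the groups, but each spleen library lay above each BM mature library. The first 2 log2 fold changes were 0.49 ± 0.13 (adjusted p = 0.0331) and 2.63 ± 0.15 (adjusted p = 5.03e-07), and that from BM to spleen was -0.49 ± 0.16 (adjusted p = 0.0686), which did not pass the threshold. Exons of Mcm7 overlap those of Ap4m1 and Cops6 on the other strand and hold Mir25 and Mir93, and the counting is not stated to use the strand.
Mcm4 (chromosome 16, 15623897 to 15637400) and Mcm5 (chromosome 8, 75109569 to 75128439) were lower still in the spleen. Mcm4 was at 92.7, 85.6 and 65.8 CPM in the BaP libraries, 69, 52.1 and 55.3 CPM in those of pre-basophils, 15, 14.5 and 12 CPM in BM mature libraries and 8.16, 8.58 and 7.57 CPM in the spleen, and its BM and spleen libraries did not overlap. Its drop from BM to spleen was 0.76 ± 0.18 (adjusted p = 0.0264). Mcm5 was at 104, 88.9 and 68.5 CPM in the BaP libraries, 59.3, 51.1 and 66.5 CPM in those of pre-basophils, 11.5, 10.02 and 5.99 CPM in BM mature libraries and 4.0, 4.13 and 5.44 CPM in the spleen, with each spleen library below each BM library. Its log2 fold changes were 2.73 ± 0.23 (adjusted p = 3.61e-06) at the second step and 0.96 ± 0.27 (adjusted p = 0.0421) at the third.
Mcm2 and Mcm6 differed between BM and spleen by 0.74 ± 0.24 (adjusted p = 0.072) and 0.66 ± 0.20 (adjusted p = 0.0536), neither called. At the third step 5 of the 6 ring genes were positive and Mcm7 was negative.
Cdc6 (chromosome 11, 98907801 to 98923940) was at 16.2, 17 and 13.7 CPM in the BaP libraries, 9.22, 7.55 and 8.64 CPM in those of pre-basophils, 1.91, 2.25 and 1.87 CPM in BM mature libraries and 2.4, 1.65 and 1.73 CPM in the spleen. All BaP libraries lay above all pre-basophil libraries, and the mature groups overlapped. Its log2 fold changes were 0.88 ± 0.21 (adjusted p = 0.0228), 2.06 ± 0.26 (adjusted p = 6.37e-05) and 0.06 ± 0.29 (adjusted p = 0.94). Dtl, called at the first step too, had log2 fold changes of 0.90 ± 0.22 (adjusted p = 0.0303) and 2.11 ± 0.27 (adjusted p = 8.38e-05) at the first 2 steps, and Gmnn had 0.49 ± 0.18 (adjusted p = 0.116) and 2.92 ± 0.23 (adjusted p = 1.93e-06).

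**Figure D4:**
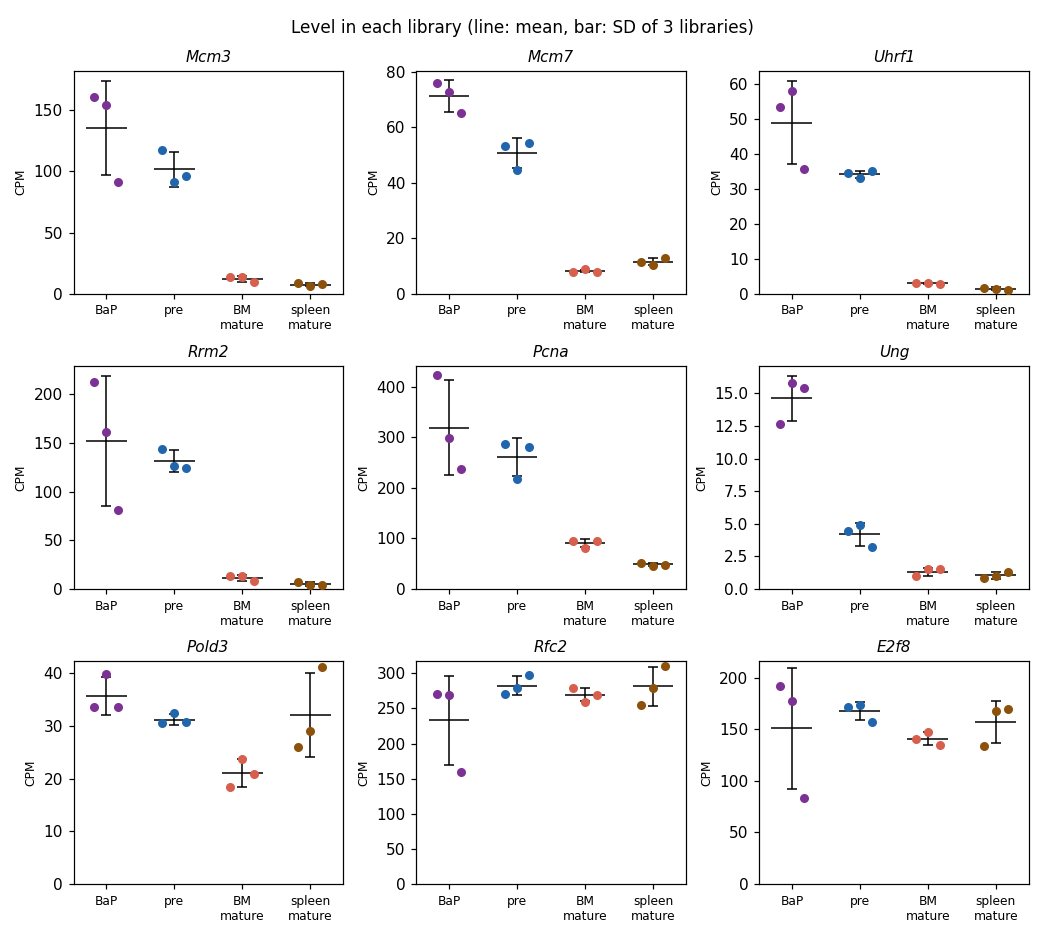
CPM of 9 members in each library (points), with the group mean (line) and the SD of 3 libraries (bar), on linear axes that start at 0. Mcm3, Uhrf1 and Rrm2 drop sharply from pre-basophils to mature basophils, and Ung drops first between BaPs and pre-basophils. Pcna is lower still in the spleen, Pold3 is lowest in BM mature basophils, and Rfc2 and E2f8 show no such order.

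Of the 13 fork genes, 12 were called at the second step, with a median over all 13 of 1.91 (3.76-fold), and Rfc2 was not. The GINS subunit Gins1 (chromosome 2, 150905400 to 150931280) had the largest drop of all members. It was at 17.7, 13.9 and 9.3 CPM in the BaP libraries, 7.27, 3.89 and 7.04 CPM in those of pre-basophils, 0.636, 0 and 0.562 CPM in BM mature libraries and 0.48, 0.66 and 0.531 CPM in the spleen. Its counts in mature libraries were few, with 0 in BM mature replicate 2, and every mature library lay below every less mature one. Gins1 had log2 fold changes of 1.14 ± 0.35 (adjusted p = 0.0638) and 3.85 ± 0.55 (adjusted p = 1.98e-04) at the first 2 steps. The other GINS member, Gins2, had 2.12 ± 0.37 (adjusted p = 8.76e-04) at the second step, but 67.3% of its exon bases also lie in exons of Gse1 on the other strand. Cdc45, which completes the active helicase with GINS, had 1.79 ± 0.28 (adjusted p = 3.53e-04).
The primase Prim1 and the polymerase subunit it works with, Pola1, had second-step log2 fold changes of 3.28 ± 0.25 (adjusted p = 1.77e-06) and 1.77 ± 0.22 (adjusted p = 6.33e-05). Claspin (Clspn) and Tipin, which stabilise the fork and carry checkpoint signals, had 2.78 ± 0.31 (adjusted p = 2.54e-05) and 2.61 ± 0.23 (adjusted p = 4.42e-06). Fen1, the flap nuclease of lagging strand synthesis, had 2.52 ± 0.26 (adjusted p = 1.45e-05), with 78.8% of its exon bases shared with the antisense gene Gm10143, and Rpa2, of the single-strand binding complex, had 1.80 ± 0.19 (adjusted p = 2.00e-05). Dscc1, a part of an alternative clamp loader, had 1.91 ± 0.33 (adjusted p = 7.65e-04).
Pcna (chromosome 2, 132249162 to 132253314), the sliding clamp that holds polymerases on DNA, was at 423, 298 and 238 CPM in the BaP libraries, 286, 218 and 281 CPM in those of pre-basophils, 95.5, 80.9 and 94.2 CPM in BM mature libraries and 51.5, 46 and 47.3 CPM in the spleen. BaP and pre-basophil libraries overlapped, BM mature libraries lay below them, and spleen libraries lay below those of the BM. Along the steps its log2 fold changes were 0.29 ± 0.18 (adjusted p = 0.373), 1.54 ± 0.18 (adjusted p = 4.81e-05) and 0.90 ± 0.19 (adjusted p = 0.0133). Pcna had the smallest adjusted p of the members at the third step, and reads of its processed copies Pcna-ps1 and Pcna-ps2 could have been counted with it or split from it.
Pold3 (chromosome 7, 100082111 to 100121565), an accessory subunit of polymerase delta that also serves break-induced repair, was at 33.7, 39.8 and 33.6 CPM in the BaP libraries, 30.5, 32.4 and 30.7 CPM in those of pre-basophils, 18.5, 23.8 and 21 CPM in BM mature libraries and 26.1, 29 and 41.2 CPM in the spleen. The BM mature libraries were the lowest and overlapped neither pre-basophils nor spleen, where the 3 libraries spread more widely. It differed by 0.56 ± 0.18 (adjusted p = 0.029) at the second step and by -0.61 ± 0.17 (adjusted p = 0.0476) at the third, the only member called higher in the spleen. Its call at the second step was lost in 5 of 18 alternatives.

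The 3 deoxynucleotide genes were all called at the second step. Rrm2 (chromosome 12, 24708241 to 24714146), the regulatory subunit of ribonucleotide reductase that is made in S phase, was at 213, 162 and 80.9 CPM in the BaP libraries, 144, 126 and 124 CPM in those of pre-basophils, 13.4, 13.3 and 7.68 CPM in BM mature libraries and 6.88, 3.63 and 4.12 CPM in the spleen. BaP libraries ran from below to above those of pre-basophils, and all mature libraries were far lower, those of the spleen below those of the BM. The log2 fold changes were 0.20 ± 0.28 (adjusted p = 0.735), 3.55 ± 0.34 (adjusted p = 8.51e-06) and 1.20 ± 0.39 (adjusted p = 0.0728); the third passed the threshold in 5 of 18 alternatives. Rrm1, the large subunit, which is present throughout the cycle, had 1.73 ± 0.16 (adjusted p = 7.40e-06) at the second step. Thymidylate synthase, Tyms, had 1.90 ± 0.25 (adjusted p = 9.47e-05), and a processed copy, Tyms-ps, is annotated.

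Of the 9 chromatin members, 8 were called at the second step and Casp8ap2 was not. Uhrf1 (chromosome 17, 56303321 to 56323486), which brings the maintenance DNA methyltransferase to hemimethylated DNA behind the fork, was at 53.5, 58 and 35.6 CPM in the BaP libraries, 34.7, 33.1 and 35 CPM in those of pre-basophils, 3.18, 3.0 and 2.81 CPM in BM mature libraries and 1.76, 1.49 and 1.06 CPM in the spleen. Pre-basophil libraries lay close together and far above all mature libraries, and spleen libraries lay below BM libraries. Its log2 fold changes were 0.51 ± 0.17 (adjusted p = 0.0941), 3.52 ± 0.23 (adjusted p = 8.48e-07) and 1.06 ± 0.31 (adjusted p = 0.0538).
Hells (chromosome 19, 38930915 to 38971051) and Cdca7 (chromosome 2, 72476159 to 72486893) encode a chromatin remodeller and the zinc finger protein that recruits it. Hells was at 31.5, 21.9 and 26 CPM in the BaP libraries, 17.6, 10.7 and 14.9 CPM in those of pre-basophils, 2.55, 3.0 and 3.37 CPM in BM mature libraries and 4.32, 4.46 and 3.45 CPM in the spleen, with all BaP libraries above all pre-basophil libraries and all of these above the mature ones. Its log2 fold changes were 0.88 ± 0.21 (adjusted p = 0.0235) and 2.24 ± 0.26 (adjusted p = 3.18e-05) at the first 2 steps. Cdca7 was at 14.1, 17.2 and 17.8 CPM in the BaP libraries, 7.83, 7.79 and 4.64 CPM in those of pre-basophils, 2.55, 0.751 and 0 CPM in BM mature libraries and 0.80, 0.66 and 0.531 CPM in the spleen. The BM mature libraries spread from 0 to 2.55 CPM. At the first 2 steps its log2 fold changes were 1.30 ± 0.43 (adjusted p = 0.0807) and 2.81 ± 0.60 (adjusted p = 0.00328), and 7 of 18 alternatives called the first. The second varied with the BM mature libraries: it was 4.25 without BM mature replicate 1 (adjusted p = 6.43e-04) and 2.06 without BM mature replicate 3 (adjusted p = 0.00697), and 3.74 with limma-voom (adjusted p = 0.00377).
The histone chaperones Chaf1b, which deposits histones on new DNA, and Nasp, which stores them, had 2.13 ± 0.28 (adjusted p = 1.06e-04) and 1.29 ± 0.17 (adjusted p = 1.13e-04) at the second step. Slbp, which binds the stem-loop of histone messages, had 1.05 ± 0.14 (adjusted p = 1.34e-04), the chromatin ATPase Atad2 had 1.28 ± 0.13 (adjusted p = 1.38e-05), and Ubr7 had 0.68 ± 0.20 (adjusted p = 0.0203).

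All 7 repair members were called at the second step, with a median of 1.59 (3.02-fold). Ung (chromosome 5, 114130386 to 114139323), the glycosylase that removes uracil from DNA, was at 12.7, 15.8 and 15.4 CPM in the BaP libraries, 4.47, 4.87 and 3.2 CPM in those of pre-basophils, 0.955, 1.5 and 1.5 CPM in BM mature libraries and 0.80, 0.99 and 1.33 CPM in the spleen. BaP libraries were several times above pre-basophil libraries, which lay above all mature libraries, and the mature groups overlapped. Its first log2 fold change, 1.82 ± 0.26 (adjusted p = 0.00115), or 3.54-fold, was the largest of the members, and the second was 1.59 ± 0.33 (adjusted p = 0.00263). BaP replicate 3 was not apart for this gene, and without it the first log2 fold change was 1.80 ± 0.28 (adjusted p = 4.97e-04). Ung was the 1 member among the 5 whose call at the first step held in all 18 alternatives.
Blm (chromosome 7, 80454733 to 80535119), a helicase that dissolves recombination intermediates, was at 55.4, 43.6 and 32.8 CPM in the BaP libraries, 43, 36.5 and 37.4 CPM in those of pre-basophils, 22.9, 23.8 and 23.2 CPM in BM mature libraries and 18.9, 18 and 17.9 CPM in the spleen. BaPs and pre-basophils overlapped and the mature groups were lower. Its log2 fold changes were small, 0.16 ± 0.16 (adjusted p = 0.612), 0.74 ± 0.17 (adjusted p = 0.00544) and 0.35 ± 0.17 (adjusted p = 0.227).
Brip1 (chromosome 11, 86058138 to 86201193), a helicase of the BRCA1 pathway, was at 17, 12 and 11.9 CPM in the BaP libraries, 14, 10.5 and 10.6 CPM in those of pre-basophils, 2.55, 3.26 and 2.06 CPM in BM mature libraries and 2.08, 5.61 and 5.31 CPM in the spleen. Spleen replicates 2 and 3 lay above all BM mature libraries and spleen replicate 1 did not. The second step gave 2.15 ± 0.36 (adjusted p = 5.91e-04) and the third -0.74 ± 0.37 (adjusted p = 0.237), the lowest third-step value of the members but not called.
The exonuclease Exo1 had 0.97 ± 0.30 (adjusted p = 0.0279) at the second step, and its call was lost in 3 of 18 alternatives. Rad51ap1, which acts in homologous recombination, had 1.60 ± 0.27 (adjusted p = 6.23e-04), and the deubiquitinase Usp1, which acts on PCNA and FANCD2, had 1.45 ± 0.17 (adjusted p = 4.37e-05). Wdr76 had 2.60 ± 0.23 (adjusted p = 5.26e-06).

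Cyclin E2 (Ccne2), which with CDK2 drives entry into S phase, had 3.13 ± 0.49 (adjusted p = 4.02e-04) at the second step, and its level was 9.79, 8.96 and 5.62 CPM in the BaP libraries, 6.99, 6.09 and 6.4 CPM in those of pre-basophils, 0.636, 0.751 and 0.749 CPM in BM mature libraries and 0, 0.66 and 0.531 CPM in the spleen. The counts in mature libraries were near the limit that a count of 0 allows, 0.398 to 0.955 CPM in these libraries. E2f8, a repressor of the E2F family, is described with the members that were not called.

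Rfc2, E2f8 and Casp8ap2 were called at none of the 3 steps. Together they held 12.5% to 15.5% of the members' counts in BaPs, 18.2% to 21.2% in pre-basophils, 43.4% to 44.8% in BM mature and 48.3% to 52.9% in spleen mature libraries, so that a sum over all members falls less than the sum over the other 40.
Rfc2 (chromosome 5, 134581366 to 134601805) encodes a subunit of the clamp loader. It was at 271, 269 and 160.2 CPM in the BaP libraries, 270.3, 279 and 297 CPM in those of pre-basophils, 278, 259.7 and 269.6 CPM in BM mature libraries and 255, 278 and 309.8 CPM in the spleen. Only BaP replicate 3 lay apart, below all others. Along the steps its log2 fold changes were -0.28 ± 0.17 (adjusted p = 0.351), 0.07 ± 0.17 (adjusted p = 0.799) and -0.06 ± 0.17 (adjusted p = 0.857), and the first was -0.06 ± 0.10 (adjusted p = 0.771) without BaP replicate 3. Of its exon bases, 15.1% lie in exons of Lat2 on the other strand, a signalling adaptor gene of leukocytes. Lat2 was at 213, 273 and 168 CPM in the BaP libraries, 361, 397 and 391 CPM in those of pre-basophils, 515, 580.1 and 575 CPM in BM mature libraries and 580.1, 722 and 685 CPM in the spleen. The first 2 log2 fold changes of Lat2 were -0.82 ± 0.15 (adjusted p = 0.00744) and -0.54 ± 0.15 (adjusted p = 0.0183), both lower in the less mature group. Whether reads of Lat2 were counted as Rfc2 was not tested.
E2f8 (chromosome 7, 48866429 to 48881596) was at 192, 178 and 83.6 CPM in the BaP libraries, 172, 174 and 158 CPM in those of pre-basophils, 140.3, 147 and 135 CPM in BM mature libraries and 134, 168 and 169 CPM in the spleen. BaP replicate 3 was the lowest library and BaP replicates 1 and 2 the highest, pre-basophil libraries lay above BM mature libraries, and spleen libraries overlapped both. The log2 fold changes were -0.16 ± 0.23 (adjusted p = 0.744), 0.25 ± 0.23 (adjusted p = 0.447) and -0.16 ± 0.23 (adjusted p = 0.713), and the first turned to 0.15 ± 0.11 (adjusted p = 0.426) without BaP replicate 3. Exons of Gm2788 on the other strand cover 11.2% of its exon bases, and Gm2788 stayed between 8.33 and 19.7 CPM.
Casp8ap2 (chromosome 4, 32615451 to 32653265), needed for histone gene expression in S phase, was at 27.2, 32.3 and 27.8 CPM in the BaP libraries, 24, 19.5 and 18.7 CPM in those of pre-basophils, 19.4, 17.8 and 20.6 CPM in BM mature libraries and 27.4, 14.5 and 16.6 CPM in the spleen. BaP libraries lay above all pre-basophil libraries, the other 3 groups overlapped, and spleen replicate 1 reached the BaP level. Its log2 fold changes were 0.49 ± 0.21 (adjusted p = 0.172), 0.10 ± 0.22 (adjusted p = 0.779) and -0.01 ± 0.21 (adjusted p = 0.981). No exon of another gene overlaps its exons in GENCODE M21, and its promoter holds the E2F match printed above.

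Among the 32 members with a promoter window, the 14 with an E2F match had second-step log2 fold changes from 0.10 to 3.52, with a median of 2.18. The 18 without a match ran from 0.25 to 3.55, with a median of 1.80. The ranges overlapped nearly in full, and no test was made.

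A further 94 replication genes outside the set, listed in the same roles, were all tested. Across the 4 groups 85 were called, against 57.8% of all tested genes. At the second step 67 were called higher in pre-basophils and 6 lower, with a median of 1.30 (2.46-fold), against 40 and a median of 2.06 for the members. At the first step 6 were called higher and 2 lower in BaPs, and at the third step 6 were called higher and 1 lower in the BM. Of all 15083 tested genes, 421 were called higher and 647 lower in BaPs at the first step. At the second step 2460 were called higher and 1652 lower in pre-basophils, and at the third 704 higher and 477 lower in the BM.
The largest second-step changes were those of the histone chaperone Asf1b, 3.46 ± 0.29 (adjusted p = 3.53e-06), and the DNA ligase Lig1, 3.31 ± 0.29 (adjusted p = 4.23e-06). The 6 genes with the opposite sign included Samhd1, which degrades deoxynucleotides, and Rrm2b, the ribonucleotide reductase subunit used outside S phase. Samhd1 was at 34.2, 46.7 and 135 CPM in the BaP libraries, 78, 85.7 and 85.9 CPM in those of pre-basophils, 356, 329.8 and 362 CPM in BM mature libraries and 403, 385 and 372 CPM in the spleen. All mature libraries lay above all others, and BaP replicate 3 was again apart, above the other BaPs. Its second-step log2 fold change was -2.07 ± 0.35 (adjusted p = 6.84e-04). Rrm2b was at 18.4, 22.4 and 19.5 CPM in the BaP libraries, 23.2, 32.1 and 21.6 CPM in those of pre-basophils, 52.8, 49.8 and 49.4 CPM in BM mature libraries and 37.8, 39.4 and 28 CPM in the spleen, highest in the BM mature group. The change was -0.99 ± 0.17 (adjusted p = 8.22e-04), beside that of 3.55 ± 0.34 for Rrm2. The other 4 were the mitochondrial thymidine kinase Tk2, -0.75 ± 0.16 (adjusted p = 0.00298), the polymerase delta subunit Pold4, -0.72 ± 0.12 (adjusted p = 5.39e-04), the origin recognition subunit Orc5, -0.55 ± 0.19 (adjusted p = 0.0417), and topoisomerase Top1, -0.50 ± 0.11 (adjusted p = 0.00425).
At the first step the largest values were those of Shmt1, a folate enzyme of thymidylate synthesis, 1.62 ± 0.41 (adjusted p = 0.0316), and of the ubiquitin ligase subunit Skp2, 1.30 ± 0.42 (adjusted p = 0.0807). The 2 genes called lower in BaPs were the activator E2f2, -0.74 ± 0.14 (adjusted p = 0.00824), and Pold4, -0.54 ± 0.12 (adjusted p = 0.0168). E2f2 was highest in pre-basophils, at 89.7, 109 and 102 CPM in its 3 libraries, the BaP libraries lying at 68.1, 65.5 and 47.5 CPM, and then fell by 1.07 ± 0.15 (adjusted p = 1.38e-04).
At the third step cyclin A2 (Ccna2) had 1.63 ± 0.33 (adjusted p = 0.0119) and the origin recognition subunit Orc1 had 1.76 ± 1.05 (adjusted p = 0.322), of which Orc1, at 0 in spleen replicates 1 and 3, was not called. The mismatch repair gene Msh6 was called lower in the BM, -0.96 ± 0.28 (adjusted p = 0.0497), and Shmt1 had -0.91 ± 0.58 (adjusted p = 0.358).

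**Figure D5:**
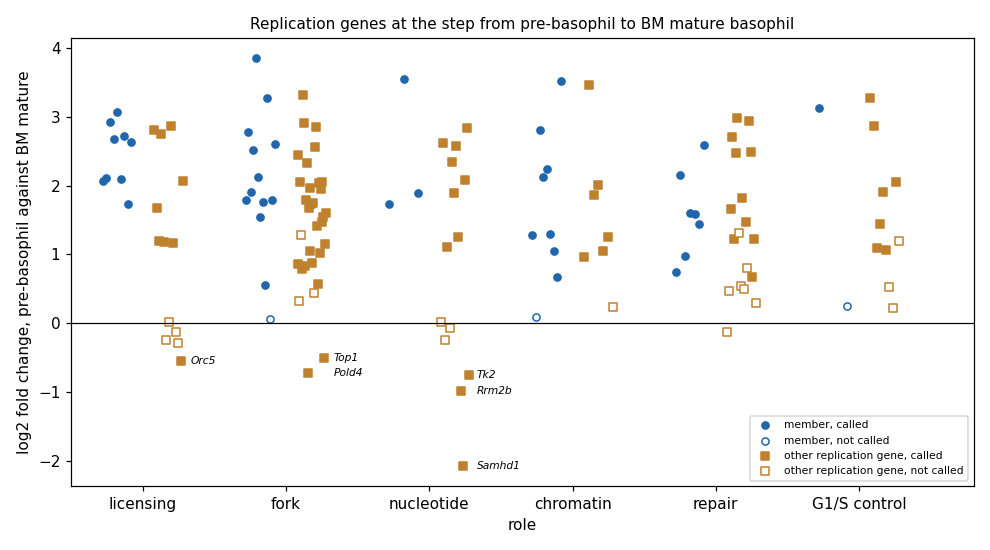
Log2 fold change from pre-basophil to BM mature of the 43 members (blue circles) and 94 other replication genes (brown squares) by role; filled symbols were called, and the 6 called genes below 0 are named. No member lies below 0, and 12 of the other genes do, 3 of the 6 called ones in the nucleotide role.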

How the data were processed

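Cells of 12 mouse basophil-lineage samples, 3 in each of 4 groups taken from the sample titles, were measured by bulk RNA sequencing. Per the labels, the authors amplified polyadenylated RNA by TAS-Seq, trimmed reads with Cutadapt 3.4, mapped them with Bowtie2 2.4.2 to reference RNA and deposited raw counts per gene. The methods name GRCm38 and the processing notes GRCm39 and mm39, which matters only for coordinates. These were taken from GENCODE M21 (GRCm38). Strand use and the treatment of reads that match several genes are not given in the sources used here, and PCR copies of a molecule are counted apart, so counts carry more than counting error.

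The counts were filtered with filterByExpr, scaled by TMM and fitted in 1 model of all 12 libraries with edgeR 4.0.16 in R 4.3.3 (glmQLFit, glmQLFTest). The 3 steps, 2 differences between steps and a 4-group F test were adjusted over 15083 genes by Benjamini-Hochberg, and genes with an adjusted p under 0.05 were called. The fits were tested on simulated data. CPM use TMM-scaled library sizes. Each log2 fold change is the earlier over the later group, with its standard error after ±. No pair of libraries in a group agreed within sampling noise. The labels do not say what a replicate number marks. Deviations from the group means correlated at 0.125 to 0.262 in all 9 same-numbered pairs within the BM groups, over 0.1 in each, and at 0.00037 to 0.0899 in the 9 pairs with a spleen library, so the numbers were taken to pair the BM libraries from the data alone, and not those of the spleen. A count of 0 allows up to 3 counts, 0.290 to 0.955 CPM. Alternatives were DESeq2 1.42.0, limma-voom 3.58.1, library size alone, repeated scaling without called genes (DEGES, after the TCC package of the study), no filter, the replicate number as a block, and leaving out each library.

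Members, marker lists and the 94 further genes were chosen with earlier results of these data known. Values in every library are given for members with the 3 largest or smallest log2 fold changes or the 3 smallest adjusted p of a step, those called from BM to spleen and those called at no step. They are also given for Ccne2, which lies outside this rule. Of the further genes, the 2 largest and 2 smallest changes of each step are named, and those called against the majority.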

Additional observations from a re-analysis of the deposited data

How the results depend on the processing

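The 40 calls at the second step were 37 to 40 under all 18 alternatives, all higher in pre-basophils, and 37 of the 40 members kept their call throughout; Pold3, Ubr7 and Exo1 lost it when single libraries were left out. The 40 calls across the 4 groups were 39 to 41. At the first step, 5 calls became 24 with library size alone, 8 without the filter and 8 with the replicate block, and 1 to 27 when a library was left out, highest without BaP replicate 3. At the third step, 4 calls became 8 without the filter, 8 with the block and 1 with limma-voom, and 0 to 11 when a library was left out. The second step against the first gave 10 to 28 calls in place of 21 when a library was left out, and the second against the third 3 to 33 in place of 25, and 10 with limma-voom. When a library was left out, calls over all tested genes moved too. They ran from 382 to 1831 at the first step, in place of 1068, and from 241 to 2653 at the third, in place of 1181. For the 2 step differences they ran from 163 to 774 and from 224 to 2069. The cause was not tested. No call changed sign. Library size alone put the all-gene median (log2) at 0.23, 0.22 and -0.14 at the 3 steps, so its calls are shifted the same way. With the replicate block the second step had 40 calls, and the step differences 24 and 28. At the first 2 steps, where the numbers paired the libraries, it changed no member's call beside the 3 added at the first. For the third step the samples share only a number. A library correlated best with its own number in 30 of 36 cases, a hint from the data and not from the design. Low counts in mature cells limit Gins1, Cdca7, Ccne2 and Ung most.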
